A study of Arabidopsis thaliana with 16 samples.

Results

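The genes described here are 10 genes of Arabidopsis thaliana that act in the unfolded protein response and in protein folding inside the endoplasmic reticulum (ER). They were chosen by gene identifier among the 33560 genes of an RNA-seq expression matrix. The genes are BIP1, BIP2 and BIP3, ERDJ3B, SDF2, SHD (also HSP90.7), CNX1, CRT1, PDIL1-1 and BZIP60. Messenger RNA was measured in roots of seedlings of the Col-0 ecotype at an age of 5 days, all cold-stratified and then grown on plates in long days. The 16 libraries fall into 4 genotypes of 4 libraries each: the mctp3-2/mctp4-1 double mutant (double), the mctp4-1 single mutant, the mctp3-2 single mutant and wild type (WT). MCTP3 and MCTP4 encode multiple C2 domain proteins that sit in the ER membrane at plasmodesmata and link it to the plasma membrane. The labels name 1 allele of each gene and do not describe the mutations, and they do not say whether libraries came from separate cultures, so each p-value refers to the spread among libraries, part of which may be technical.

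Proteins that enter the secretory pathway fold in the ER. BiP, an HSP70, holds unfolded chains there with the help of J-domain proteins, while calnexin and calreticulin bind sugar chains of folding glycoproteins and protein disulfide isomerases join cysteines. When unfolded proteins accumulate, the membrane sensor IRE1 splices the messenger RNA of the transcription factor bZIP60, and the membrane-bound factors bZIP28 and bZIP17 are cut free by the S1P and S2P proteases. The released factors raise transcription of the chaperone genes, and BIP3 in particular is known as a gene that is nearly silent without ER stress and strongly induced by it. Root cells that secrete wall material and membrane proteins use the same chaperones without stress.

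The values are FPKM, which count fragments relative to gene length and to library size, so levels can be compared between genes per length. FPKM of single libraries summed to 887430 to 1016221, and 18556 to 18786 genes reached 1 FPKM. The number of reads behind a value is unknown. Low values gave only a relative depth of 0.889 to 1.61 times that of WT replicate 1. All 8 root markers were in the matrix, with none at 0 in all libraries and a summed level of 4266 to 5527 FPKM. The replicate numbers split the libraries: in every genotype replicates 3 and 4 stood apart from replicates 1 and 2. After subtraction of genotype means, libraries of different genotypes from different pairs of numbers correlated at -0.518 to -0.186 across genes, and those with the same number at 0.203 to 0.556. The description labels leave a gap between the numbers of replicates 2 and 3 and do not say what the numbers stand for.

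The mutated loci were examined first. MCTP4 averaged 3.08 ± 0.166 FPKM in double, 4.33 ± 1.29 in mctp4-1 and 28.6 ± 1.50 in mctp3-2, against 26.4 ± 3.42 FPKM in WT (SD, n = 4 each). MCTP3 averaged 13.8 ± 0.847 FPKM in double, 6.68 ± 1.10 in mctp4-1 and 13.8 ± 1.78 in mctp3-2, against 6.39 ± 0.236 FPKM in WT (SD, n = 4 each). MCTP3 transcript was thus higher, not lower, in the libraries labelled mctp3-2 and double, and gene-level FPKM do not separate transcript on either side of a disrupted site. Directions given below for these 2 genotypes are those of the libraries labelled so.

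The promoters of 4 of the 10 genes hold a match to the ER stress response element, a motif found upstream of many chaperone genes, within the 300 bases before the annotated gene start. Its letters are CCAAT, any 10 bases and then CACG, searched on both strands, and 0.75% of 27443 promoters of that length hold it. Of the 42 other genes of the ER followed below, 7 hold it, so the match is not particular to the 10 genes. The unfolded protein response element TGACGTGG, searched likewise, lies in 3 of the 10 promoters, in 2 of those 42 and in 1.33% of all. The stretches with these matches are shown because the 4 genes lie at opposite ends of the level range, BIP3 near 0 and the other 3 among the most abundant. They were read from the TAIR10.1 genome at the RefSeq gene starts. Capitals mark the fixed letters of both motifs on either strand, and the sequences run 5′ to 3′ toward the gene.
BIP3: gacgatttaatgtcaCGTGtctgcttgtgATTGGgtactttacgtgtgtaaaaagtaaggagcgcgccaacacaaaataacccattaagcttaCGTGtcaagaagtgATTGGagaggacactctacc
SHD: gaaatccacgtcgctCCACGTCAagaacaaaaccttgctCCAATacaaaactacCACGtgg
CRT1: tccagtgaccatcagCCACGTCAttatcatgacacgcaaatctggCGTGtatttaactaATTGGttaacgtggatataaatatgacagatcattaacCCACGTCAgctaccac
PDIL1-1: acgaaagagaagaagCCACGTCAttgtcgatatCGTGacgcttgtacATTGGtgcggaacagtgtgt
The BIP3 stretch is chr1:2931913-2932039 on the minus strand and holds 2 matches to the ER stress response element. The SHD stretch is chr4:12556059-12556119 on the minus strand and ends at the base before the gene. The CRT1 stretch is chr1:21092710-21092822 on the minus strand and holds 2 matches to TGACGTGG beside 1 to the longer element. The PDIL1-1 stretch is chr1:7645390-7645456 on the plus strand. Matches to the G-box CACGTG lie in 5 promoters, those of BIP3, SDF2, SHD, CRT1 and BZIP60, against 7.09% of all promoters, and in BIP3 and SHD the G-box overlaps the ER stress response element. The box CCAAT alone lies in 8 of the 10 promoters and in 51.89% of all. Of the 42 other genes of the ER, 8 hold the G-box and 28 the box CCAAT. A second form, ATTGG with CCACG after any 1 base, and the motif GATGACGCG lie in 0 of the 10, against 0.07% and 0.04% of all. These letter matches describe the windows only.

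Levels of the 10 genes spanned from 0 to 359.1 FPKM, and the summed level held between 0.117% and 0.217% of all FPKM in a library. PDIL1-1 (AT1G21750, chromosome 1, 7645610 to 7648855, plus strand), a protein disulfide isomerase, had the highest mean in every genotype, at 284.5 ± 64.1 FPKM in double, 288.2 ± 54.9 in mctp4-1, 298.2 ± 51.4 in mctp3-2 and 274.5 ± 55.8 in WT (SD, n = 4 each). Next came BIP2, CRT1, SHD, CNX1 and BIP1, whose genotype means lay between 178.3 FPKM for BIP1 in WT and 245.5 FPKM for BIP2 in mctp3-2. Neighbours among these 5 differed by less than their SD within a genotype, and CRT1 stood before BIP2 in mctp4-1 but after it in the other genotypes.

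ERDJ3B (AT3G62600, chromosome 3, 23150779 to 23153649, minus strand), a J-domain partner of BiP, was lower, with 66.4 to 119.3 FPKM over all libraries. SDF2 (AT2G25110, chromosome 2, 10684118 to 10686347, plus strand), which works in a complex with ERDJ3B and BiP, had 66.6 to 100.7 FPKM. The ranges of these 2 genes overlapped each other but not that of BIP1, which began at 131.2 FPKM. BZIP60 (AT1G42990, chromosome 1, 16135723 to 16137463, minus strand, 2 exons), the transcription factor, had 25.0 to 38.3 FPKM, below every value of SDF2. The FPKM are per gene and do not separate its spliced from its unspliced form.

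BIP3 (AT1G09080, chromosome 1, 2929217 to 2931850, minus strand) stood at the bottom in all genotypes. It had 0.0176, 0.0199, 0.0962 and 0 FPKM in double, 0.0660, 0.0451, 0 and 0.110 FPKM in mctp4-1, and 0.0390, 0.0157, 0 and 0.0549 FPKM in mctp3-2, against 0.0172, 0.0377, 0.0751 and 0 FPKM in WT, each in replicates 3, 4, 1 and 2. The genotypes overlapped, and at least 1 library of each was listed at 0. Exact permutation tests of 4 against 4 libraries gave p = 0.914 for double, 0.514 for mctp4-1 and 0.800 for mctp3-2 against WT (2-sided, the smallest p from 70 arrangements is 0.0286). BIP3 did not pass the filter on low values, 4 or more libraries with 1 FPKM or more, so 9 of the 10 genes entered the fit across all genes.

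The remaining members lie as follows in TAIR10.1. BIP1 (AT5G28540) lies on chromosome 5 from 10540123 to 10543558 and BIP2 (AT5G42020) on chromosome 5 from 16807342 to 16810693, both on the minus strand. SHD (AT4G24190), the HSP90 of the ER, lies on chromosome 4 from 12551552 to 12556058, minus strand, with 15 exons. CNX1 (AT5G61790), the membrane-bound calnexin, lies on chromosome 5 from 24827063 to 24829900, and CRT1 (AT1G56340), a luminal calreticulin, on chromosome 1 from 21089565 to 21092709, both on the minus strand. None of the 10 genes overlaps another annotated gene (0 overlaps). The coding sequences of BIP1 and BIP2 are 95.8% identical with a longest shared run of 323 bases, and 32.0% of the 50-base windows of BIP1 occur in BIP2, so the split of reads between these 2 genes is uncertain. BIP3 is 70.4% identical to BIP1 and 69.8% to BIP2, with 0 shared windows of that length.

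**Figure D1:**
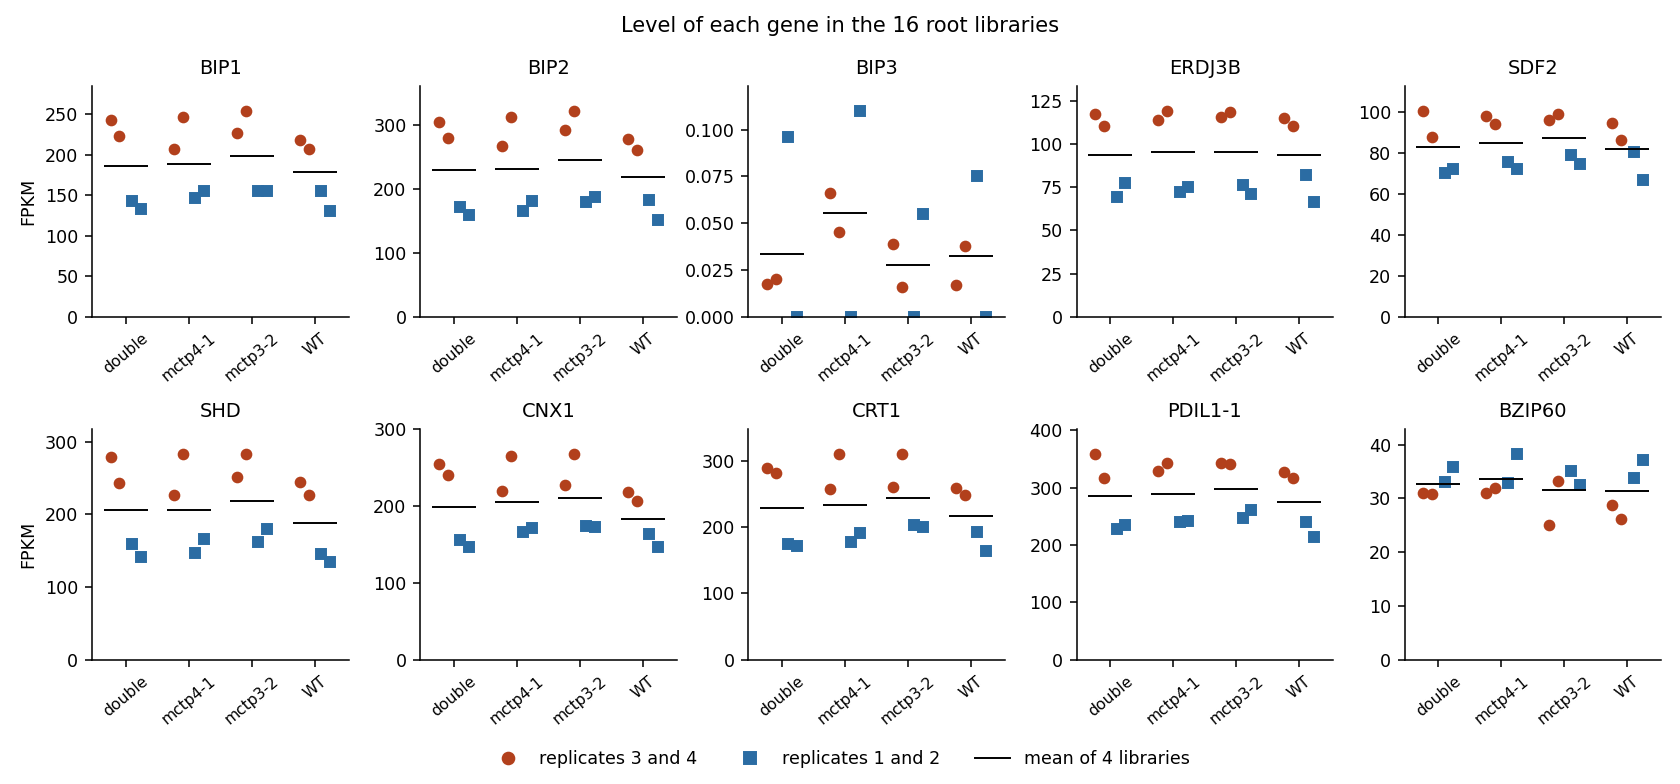
FPKM of the 10 genes in each library, 1 panel per gene, with genotypes on the x axis from double to WT, circles for replicates 3 and 4, squares for replicates 1 and 2 and a bar for the mean of 4 libraries. The 4 bars of a panel lie close together, while circles lie above squares for the 8 chaperone genes other than BIP3, and BIP3 stays at or below 0.110 FPKM.

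The first question of the design was whether the chaperone genes differ when MCTP3, MCTP4 or both carry a mutation. SHD had 278.9, 243.6, 159.0 and 141.0 FPKM in double, against 244.5, 227.3, 145.3 and 134.2 FPKM in WT, in replicates 3, 4, 1 and 2. It had 227.3, 283.8, 146.4 and 165.7 FPKM in mctp4-1 and 251.0, 282.8, 162.2 and 180.6 FPKM in mctp3-2. The genotypes overlapped over nearly their whole range. CNX1 had 254.6, 240.2, 155.9 and 146.3 FPKM in double, 219.2, 265.2, 166.5 and 171.0 FPKM in mctp4-1 and 226.9, 268.1, 173.3 and 172.2 FPKM in mctp3-2, against 217.7, 206.3, 163.3 and 146.9 FPKM in WT, in the same order of replicates. Here too the spread within a genotype, an SD of 56.1 FPKM in double and 33.9 FPKM in WT, was larger than the distance between the means, 199.3 FPKM in double and 183.5 FPKM in WT. Much of that spread is a difference between replicate pairs that the genotypes share. CNX1 averaged 247.4 FPKM in replicates 3 and 4 of double against 151.1 FPKM in replicates 1 and 2, and 212.0 against 155.1 FPKM in WT. The SD therefore does not measure the precision of a comparison with the replicate number as a block, which is given below.

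None of the 9 tested genes passed the test in any genotype comparison: 0 were called in double against WT, where 0.156% of all 19239 genes tested were called, 0 in mctp4-1 (0.026% of all) and 0 in mctp3-2 (0.0312% of all). A gene was called at an adjusted p under 0.05 (Benjamini-Hochberg over all genes) from limma on log2(FPKM + 1), with 1 mean per genotype. The count was also 0 in double against mctp4-1 (0.0624% of all), double against mctp3-2 (0.0572%), mctp3-2 against mctp4-1 (0.026%) and for the interaction, double minus both single mutants plus WT (0.0364%). At an unadjusted p under 0.05 the count of these genes in this fit was 0 in each comparison with WT, where 735, 242 and 355 of all genes passed in double, mctp4-1 and mctp3-2. With the replicate number as a block the calls of members stayed at 0 in all 7 comparisons, where 0.541%, 0.026% and 0.0572% of all genes were called in double, mctp4-1 and mctp3-2 against WT, 0.312% in double against mctp4-1, 0.275% in double against mctp3-2, 0.0364% in mctp3-2 against mctp4-1 and 0.052% for the interaction. At an unadjusted p under 0.05 the block gave 3 of the 9, SHD, CNX1 and CRT1, in mctp3-2 against WT, where 1218 of all genes passed, and 0 in double and mctp4-1, where 1694 and 560 passed.

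The fitted differences were small, and their intervals were wide in the fit without a block. In double against WT the 9 log2 changes ran from 0.00 for ERDJ3B to 0.12 for SHD, with a median of 0.05 beside 0.03 over all genes tested. Medians were 0.08 in mctp4-1 and 0.15 in mctp3-2, beside 0.03 and 0.05 over all genes. All 9 values lay above 0 in each comparison with WT, where 59.9%, 60.6% and 65.5% of all genes did so in double, mctp4-1 and mctp3-2. The 3 comparisons share the WT libraries, and the chaperone genes varied together between libraries, so the 9 directions are not independent. SHD changed by 0.12 in double (95% interval -0.47 to 0.71), 0.13 in mctp4-1 (-0.46 to 0.72) and 0.23 in mctp3-2 (-0.36 to 0.82) on the log2 scale, which leaves room for differences in either direction. BIP2 changed by 0.05 in double (-0.55 to 0.66), 0.08 in mctp4-1 (-0.53 to 0.68) and 0.16 in mctp3-2 (-0.44 to 0.77). It had the highest listed FPKM of the BiP genes, with the split of reads between BIP1 and BIP2 uncertain. BZIP60 had the narrowest intervals, with 0.06 in double (-0.19 to 0.32), 0.10 in mctp4-1 (-0.16 to 0.35) and 0.00 in mctp3-2 (-0.25 to 0.26).

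Libraries with the same replicate number can be set side by side, and the block then narrowed the intervals. SHD was higher in the library labelled mctp3-2 than in the WT library of the same number for 4 of 4 numbers, at 1.03 to 1.35 times the WT level, and with the block its log2 change of 0.23 had an interval of 0.05 to 0.42 (limma adjusted p = 0.720). CNX1, CRT1 and PDIL1-1 were likewise higher in mctp3-2 for 4 of 4 numbers, with log2 changes of 0.19, 0.17 and 0.13 and an limma adjusted p of 0.720 each. None of these values passed the test over all genes. The same tally was found in the other mutants for single genes: SHD was higher in double than in WT for 4 of 4 numbers, at 1.05 to 1.14 times the WT level, and CNX1 was higher in mctp4-1 for 4 of 4, at up to 1.28 times the WT level. The share of all genes with such a tally was not counted, and the labels do not state a pairing of the numbers. SHD in replicate 2 of double (141.0 FPKM) lay below replicate 1 of WT (145.3 FPKM), so its tally depends on the matching within a pair. The tallies in mctp3-2 and of CNX1 in mctp4-1 hold under either matching within a pair. With the block SHD in double had an interval of -0.06 to 0.31, CNX1 in mctp4-1 had 0.15 (-0.01 to 0.32), and BIP2 in double had an interval of -0.11 to 0.22. Whether the mutants differ from each other in these genes was tested in the comparisons between mutants, with 0 calls. For the interaction the 9 values lay between -0.25 for CNX1 and -0.04 for BZIP60. Of the 9, 0 lay above 0, where 37.1% of all genes did so, and these directions are not independent either. The blocked interval of CNX1 was -0.49 to -0.01 (limma adjusted p = 0.959).

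**Figure D2:**
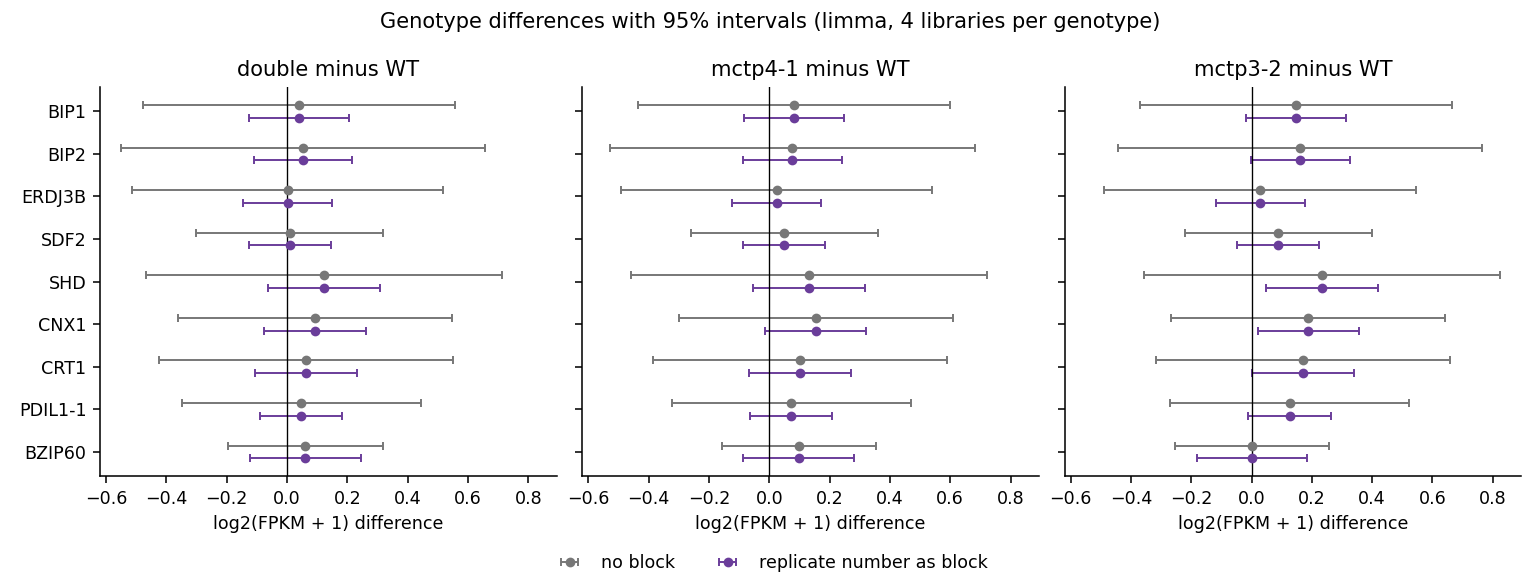
Log2(FPKM + 1) difference of each of the 9 tested genes from WT (x axis) in double, mctp4-1 and mctp3-2, with 95% limma intervals, in grey without a block and in purple with the replicate number as a block. Every grey interval crosses 0; with the block those of SHD, CNX1 and CRT1 in mctp3-2 lie above 0, at an adjusted p of 0.720.

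The variation within genotypes was shared by the chaperone genes and followed the replicate numbers. All 9 tested genes were called between replicates 3 and 4 and replicates 1 and 2, in a fit with a mean per genotype, where 44.4% of all genes were called. The contrast sets 2 replicate numbers against 2, and same-numbered libraries of different genotypes deviated together, while the fit takes the 16 libraries as independent. Its p-values are too small if the number is the independent unit, and 2 numbers against 2 are too few for an exact test to pass the threshold. The 8 chaperone genes were higher in replicates 3 and 4 (27.9% of all genes were called higher) and BZIP60 was lower (16.6% of all were called lower). The sum of the 10 genes was 1862 ± 128 FPKM in replicates 3 and 4, against 1241 ± 76.0 FPKM in replicates 1 and 2 (SD, n = 8 each), which is 1.50 times as much. That sum held 0.202% of all FPKM in replicates 3 and 4, against 0.130% in replicates 1 and 2. In bulk roots, more cells of a type and more RNA per cell cannot be told apart. Median of ratios scaling moved the split of all called genes to 4107 higher and 4173 lower, against 5364 and 3187 without it, and the 9 genes were called in the same directions.

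Among the HSP70 genes and their partners, BIP2 had the largest fitted change. BIP2 lay between 261.9 and 323.1 FPKM (median 286.0) in replicates 3 and 4, against 152.2 to 187.3 FPKM (median 175.6) in replicates 1 and 2, a log2 change of 0.75 ± 0.05 (SE; limma adjusted p = 2.45e-08). BIP1 lay between 207.3 and 254.8 FPKM (median 224.9), against 131.2 to 155.9 FPKM (median 151.1), a log2 change of 0.63 ± 0.05 (SE; adjusted p = 2.57e-07). The ranges of both genes did not overlap between the 2 sets of 8 libraries. ERDJ3B lay between 110.5 and 119.3 FPKM (median 115.3) in replicates 3 and 4, against 66.4 to 81.8 FPKM (median 73.7) in replicates 1 and 2, a log2 change of 0.64 ± 0.05 (SE). SDF2, its partner, lay between 86.5 and 100.7 FPKM (median 95.3), against 66.6 to 80.5 FPKM (median 73.4), a log2 change of 0.35 ± 0.05 (SE; adjusted p = 3.19e-05). SDF2 had the smallest rise of the 8 chaperone genes, again without overlap.

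SHD, the ER form of HSP90, lay between 227.3 and 283.8 FPKM (median 247.8) in replicates 3 and 4, against 134.2 to 180.6 FPKM (median 152.7) in replicates 1 and 2, a log2 change of 0.72 ± 0.06 (SE). Of the lectin chaperones, CRT1 lay between 249.2 and 311.2 FPKM (median 271.4), against 164.6 to 202.8 FPKM (median 184.4), with a log2 change of 0.59 ± 0.06 (SE). CNX1 lay between 206.3 and 268.1 FPKM (median 233.5), against 146.3 to 173.3 FPKM (median 164.9), with 0.55 ± 0.06 (SE). These 3 genes rose without overlap between the sets of libraries. PDIL1-1 lay between 316.7 and 359.1 FPKM (median 334.8), against 213.7 to 260.5 FPKM (median 240.4), with a log2 change of 0.49 ± 0.04 (SE; adjusted p = 3.58e-07), so the most abundant member also rose. In all, 8 of 9 genes had all 8 libraries of replicates 3 and 4 above all 8 of replicates 1 and 2, where 7.42% of all genes did so, and 0 of the 9 had them all below, where 4.27% did. The tested genes with a match to the ER stress response element shown above, SHD, CRT1 and PDIL1-1, had log2 changes of 0.72, 0.59 and 0.49. Those without one, BIP2, ERDJ3B, BIP1, CNX1, SDF2 and BZIP60, had 0.75, 0.64, 0.63, 0.55, 0.35 and -0.22.

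BZIP60 went the other way. It lay between 25.0 and 33.3 FPKM (median 30.9) in replicates 3 and 4, against 32.5 to 38.3 FPKM (median 34.5) in replicates 1 and 2, and the ranges overlapped. Its log2 change was -0.22 ± 0.06 (SE; limma adjusted p = 0.00742). The median over the 9 genes was 0.59, beside 0.05 over all genes tested, whose 5th and 95th percentiles were -0.56 and 0.48. BIP3 had 0.0157 to 0.0660 FPKM in replicates 3 and 4, against 0 to 0.110 FPKM in replicates 1 and 2, and so stayed near 0 in both.

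Each genotype showed the same directions by itself. The sum of the 10 genes in replicates 3 and 4 was 1.60 times that of replicates 1 and 2 in double, 1.49 times in mctp4-1, 1.46 times in mctp3-2 and 1.46 times in WT. BIP2 averaged 292.7 FPKM in replicates 3 and 4 of double against 165.9 FPKM in replicates 1 and 2, 290.0 against 173.5 FPKM in mctp4-1, 307.8 against 183.3 FPKM in mctp3-2 and 270.3 against 167.3 FPKM in WT (n = 2 each). In a fit with a mean for each genotype and pair of numbers, all 8 chaperone genes were called higher within double and 7 within each of mctp4-1, mctp3-2 and WT, where 3.84%, 2.41%, 1.55% and 11.1% of all genes were called higher. SDF2 missed the threshold in the last 3, with log2 changes of 0.38, 0.34 and 0.30, and BZIP60 missed it in all 4, with values between -0.36 in WT and -0.15 in double. The size of the pair difference was not shown to differ from that of WT in any mutant: 0 of the 9 genes were called for double (0.0% of all genes), mctp4-1 (0.0052%) and mctp3-2 (0.0%). CNX1 had the highest of these values in double, 0.26 with a 95% interval of -0.09 to 0.60.

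**Figure D3:**
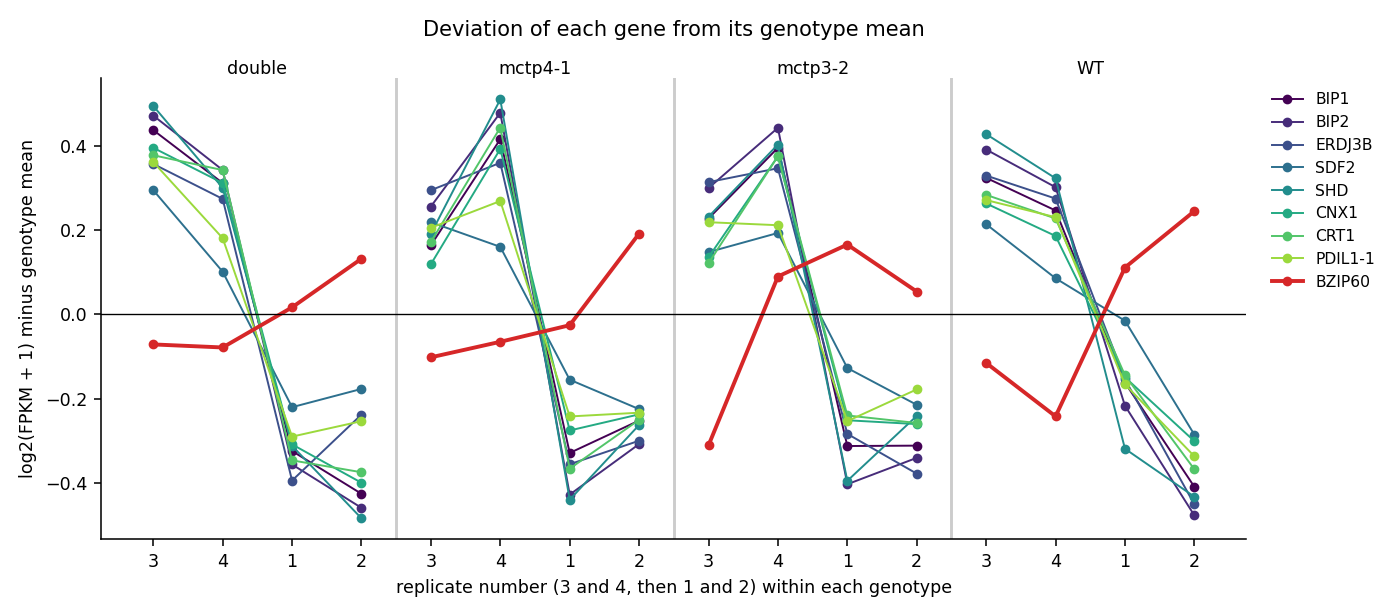
Deviation of each of the 9 tested genes from its genotype mean on the log2(FPKM + 1) scale (y axis) in the 16 libraries, ordered by genotype and, within it, replicates 3 and 4 and then 1 and 2 (x axis). The 8 thin lines of the chaperone genes lie above 0 in replicates 3 and 4 and below 0 in replicates 1 and 2 of every genotype, while the thick line of BZIP60 takes the opposite course except in replicate 4 of mctp3-2 and replicate 1 of mctp4-1.

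Ratios between genes are given as a description, since they were chosen after the values were seen. The ratio of BIP1 to BIP2 was 0.775 to 0.798 in replicates 3 and 4, against 0.831 to 0.884 in replicates 1 and 2, with the uncertain split of reads between these genes. The ratio of SDF2 to ERDJ3B was 0.783 to 0.862 in replicates 3 and 4, against 0.936 to 1.05 in replicates 1 and 2. These ranges did not overlap. Nor did those of PDIL1-1 to BIP2, 1.06 to 1.23 against 1.32 to 1.46, and of BZIP60 to BIP2, 0.0854 to 0.116 against 0.173 to 0.244. Any genes with unlike changes between the replicate pairs can separate in this way, and the share of other gene pairs that do so was not counted. For CNX1 to CRT1 the ratios overlapped, with 0.828 to 0.881 in replicates 3 and 4, against 0.849 to 0.941 in replicates 1 and 2, and for SHD to BIP2 as well, with 0.850 to 0.912 against 0.796 to 0.964.

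As a description over the 16 libraries, which share replicate numbers, deviations from the genotype means of the 8 chaperone genes correlated with each other at r = 0.916 to 0.997 over 28 pairs. The highest was BIP1 with BIP2, whose reads may be shared, and the lowest SDF2 with SHD. BZIP60 correlated with the 8 genes at -0.741 to -0.604. When the means of genotype and pair of numbers were subtracted, the chaperone genes still correlated at 0.187 to 0.981 with a median of 0.682, while BZIP60 stood at -0.135 to 0.480. Libraries of the same genotype and pair then mirror each other around their mean, so the 16 deviations are not independent. No range over other genes was set beside these values.

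Other genes of the same machinery, 63 in 8 groups by role, were followed to place the 10 genes. Of these, 60 passed the filter, and 0 were called in any of the 7 genotype comparisons. The largest values in double against WT were found outside the ER groups, with HSP17.6C at 0.36, HSP90-1 at 0.23, HSP70-4 at 0.22 and HSFA2 at 0.19 on the log2 scale. HSC70-3 and HSP101 stood at 0.15 each. Among the sensors and factors IRE1A stood at 0.18, S2P at 0.17 and NAC103 at 0.16, and in ER-associated degradation DER2.2 at 0.15, HRD3A at 0.09 and UBC32 at 0.08. In the group of HSP70 partners HSP70-17, an HSP70 relative in the ER, stood at 0.17, P58IPK at 0.11 and ERDJ2A at 0.06. The largest values were 0.12 for EBS1, 0.11 for CRT3 and 0.05 for CNX2 among the lectin chaperones, and 0.08 (PDIL1-4, PDIL2-1 and ERO1) for disulfide formation. In the Sec61 group they were -0.14 for SEC61B, 0.05 for SEC61A1 and 0.03 for SEC61A2. Between the replicate pairs 45 were higher and 2 lower in replicates 3 and 4, where 27.9% of all genes were called higher and 16.6% lower. Median of ratios scaling gave 41 higher and 3 lower of the 60, where 4107 and 4173 of all 19239 genes were called. The 41 tested genes of the ER groups had a median log2 change of 0.27, beside 0.05 over all genes, with 31 higher and 2 lower. The 2 lower calls, SEC61B at -0.20 (limma adjusted p = 0.0297) and the stress-related factor gene NAC089 at -0.23 (limma adjusted p = 0.0326), were lost in 10 and 9 of 22 alternative fits, and 0 lower calls were left without any 1 WT library, without double replicate 2 or 4 or without mctp3-2 replicate 4. Of the higher calls HRD1A was lost in 12 of the 22 fits, PDIL5-1 in 10, HRD1B in 5 and DER2.1 in 1, and the other higher calls in 0.

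Most genes that work beside the 10 in the ER also rose. All 5 HSP70 partners in the ER were higher, with ERDJ3A at 0.68, P58IPK, a J-domain protein, at 0.63, HSP70-17 at 0.56, ERDJ2B at 0.50 and ERDJ2A at 0.18 on the log2 scale. P58IPK averaged 58.9 ± 5.56 FPKM in replicates 3 and 4, against 37.9 ± 3.77 FPKM in replicates 1 and 2 (SD, n = 8 each). All 4 lectin chaperone and glucosyltransferase genes were higher, among them EBS1, which re-glucosylates unfolded glycoproteins, at 0.69, CNX2 at 0.63, CRT3 at 0.26 and CRT2 at 0.25. CRT2 averaged 271.0 FPKM in replicates 3 and 4, against 227.6 FPKM in replicates 1 and 2. Of 9 genes for disulfide formation 8 were higher, with the isomerase genes PDIL2-2 at 0.64, PDIL1-3 at 0.60, PDIL2-3 at 0.41, PDIL1-2 at 0.36, PDIL2-1 at 0.28, PDIL1-4 at 0.27 and PDIL5-1 at 0.17. Of the oxidase genes ERO2 was higher at 0.31, while ERO1 had 0.20 and was not called.

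Among 11 tested sensors and transcription factors 6 were higher and 1, NAC089, lower. IRE1A, the splicing sensor, was at 18.7 ± 1.68 FPKM in replicates 3 and 4, against 12.8 ± 1.82 FPKM in replicates 1 and 2 (log2 change 0.51), and IRE1B changed by 0.35. The protease gene S1P was higher at 0.26, NAC062 at 0.47 and the co-chaperone gene BAG7 at 0.24. BZIP28 was at 18.8 ± 1.71 FPKM, against 14.7 ± 1.10 FPKM (log2 change 0.33), and BZIP17 had 0.14 and was not called (limma adjusted p = 0.0647). NAC103, which acts downstream of bZIP60, had -0.22 and was not called (limma adjusted p = 0.161) at a mean under 1 FPKM in replicates 3 and 4. Of 8 genes of ER-associated degradation 6 were higher, namely HRD3A at 0.44, DER1 at 0.41, DER2.1 at 0.23, OS9 at 0.21, HRD1A at 0.18 and HRD1B at 0.16, and of 4 Sec61 translocon genes SEC61A1 (0.43) and SEC61A2 (0.32) were higher and SEC61B lower.

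Genes of other compartments rose as well. Of 15 HSP70 and HSP90 genes of other compartments 12 were higher, with HSP90-3 at 0.57, HSP90-1 at 0.55, HSP90-2 at 0.54 and HSC70-3 at 0.52 on the log2 scale. HSP90-6 was at 0.46, HSC70-1 at 0.34, CPHSC70-2 at 0.31, MTHSC70-2 at 0.30, HSP90-4 at 0.28, HSP90-5 at 0.28, CPHSC70-1 at 0.28 and MTHSC70-1 at 0.20. HSC70-1, a cytosolic HSP70, averaged 1270 ± 51.0 FPKM in replicates 3 and 4, against 1004 ± 71.7 FPKM in replicates 1 and 2 (SD, n = 8 each). HSFA2, a heat stress factor, was at 1.34 ± 0.313 FPKM, against 0.323 ± 0.137 FPKM (log2 change 0.82, limma adjusted p = 1.71e-05), and the disaggregase gene HSP101 at 4.13 ± 0.898, against 2.67 ± 0.281 FPKM (0.47). The small heat shock protein genes HSP17.4 and HSP17.6C, at about 1 FPKM, had -0.04 and -0.19 and were not called.

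**Figure D4:**
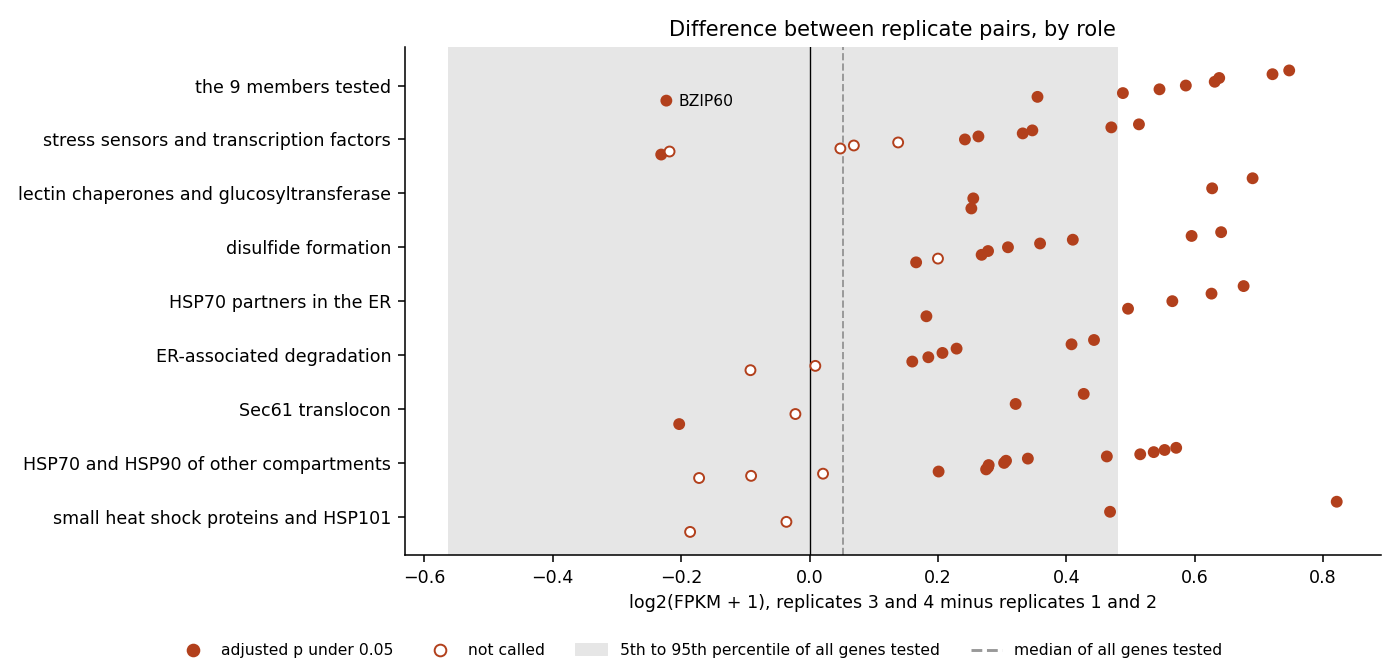
Log2(FPKM + 1) difference, replicates 3 and 4 minus replicates 1 and 2 (x axis), of the 9 tested members and the 60 other tested genes by role (rows), filled where the adjusted p is under 0.05. Grey shading spans the 5th to the 95th percentile of all genes tested, -0.56 to 0.48, and 7 of the 9 members lie to the right of it, while BZIP60 and SDF2 lie inside.

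The genes with the most similar course, by Pearson r of their deviations to the mean standardised deviation of the members over 16 libraries, were ranked among 11590 genes with a mean of at least 10 FPKM. The 8 highest were PDIL2-2 (r = 0.988), SYTA (0.986), ATMDAR2 (0.984), HSP81-2 (0.983), AT1G23170 (0.983), HSP81-3 (0.982), GPT (0.980) and RPT2b (0.979). Of these, PDIL2-2 is a protein disulfide isomerase and HSP81-2 and HSP81-3, the HSP90-2 and HSP90-3 named above, are cytosolic HSP90 genes, so 3 of the 8 come from the list of 63. Among the first 30 genes 8 came from it, of 49 list genes ranked. The deviations keep the difference between the replicate pairs, in which 44.4% of all genes were called. With the means of genotype and pair of numbers subtracted, r of the 8 highest genes was 0.802 (ATMDAR2) to 0.938 (SYTA). The mean of the members includes BZIP60, whose own r to it was -0.599. No range of r over all ranked genes was set beside these values. SYTA (AT2G20990), a synaptotagmin that tethers the ER to the plasma membrane, averaged 149.2 FPKM in replicates 3 and 4, against 116.6 FPKM in replicates 1 and 2 (log2 change 0.35), and had 0.07 in double against WT. ATMDAR2 (AT5G03630), a monodehydroascorbate reductase, averaged 325.6 FPKM, against 200.8 FPKM (0.69). GPT (AT2G41490), which starts the sugar chains used for glycosylation in the ER, averaged 20.0 FPKM, against 13.3 FPKM (0.55).

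Other measures moved with the replicate numbers as well. Of 10 green tissue markers 8 were called lower in replicates 3 and 4, where 16.6% of all genes were called lower. The markers had a median log2 change of -0.65, beside 0.05 over all genes, and none was at 0 in all libraries. Their summed level was 108.6 to 283.7 FPKM in replicates 3 and 4, against 190.1 to 457.9 FPKM in replicates 1 and 2. By genotype, the median of the summed level was 130.7 FPKM in replicates 3 and 4 of double against 325.1 FPKM in replicates 1 and 2, 150.3 against 286.8 FPKM in mctp4-1, 159.1 against 232.5 FPKM in mctp3-2 and 237.0 against 254.8 FPKM in WT (n = 2 each). With n = 2 a median is a midpoint: in double the libraries were at 108.6 and 152.8 FPKM, against 192.3 and 457.9 FPKM. The sum of the 10 genes was 1.60, 1.49, 1.46 and 1.46 times as high in replicates 3 and 4 of double, mctp4-1, mctp3-2 and WT. None of the 8 root markers was called (0 higher, 0 lower), where 27.9% of all genes were called higher and 16.6% lower. The summed levels of the root markers were 4266 to 4890 FPKM in replicates 3 and 4, against 4369 to 5527 FPKM in replicates 1 and 2. The relative depth averaged 1.36 in replicates 3 and 4 (1.13 to 1.61), against 1.07 in replicates 1 and 2 (0.889 to 1.33). The part of green tissue or of depth in the pair difference was not tested.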

How the data were processed

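Roots were ground, RNA was extracted with Trizol and stranded mRNA libraries were sequenced, per the labels' protocols. Per the submitters' processing notes HISAT2, Cufflinks and the TAIR10 build were used; their versions and parameters, and the strand setting, are not stated in the sources used here. The authors deposited FPKM per gene, already scaled by transcript length and library size. No counts were used: only 27.1 to 47.1% of low values (under 0.6 FPKM) fell on steps of whole fragments within 0.05 on the log2 scale, so whole reads could not be recovered and depth is relative only. FPKM below 1e-06 were taken as 0. No 2 libraries held identical values (0 pairs).

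Log2(FPKM + 1) of 19239 genes with at least 1 FPKM in at least 4 libraries was modelled in limma 3.58.1 (R 4.3.3) with a variance trend and robust moderation over all 16 libraries. A fold change on this scale understates changes of low genes. Tests were 2-sided with Benjamini-Hochberg adjustment over all genes, and the fit was tested on simulated data. The simulated libraries were drawn independently, so that test does not cover deviations shared by libraries of the same number. The replicate pair contrast adds 1 term to the genotype means. Between genotypes, same-numbered libraries correlated at 0.203 to 0.556 in their deviations from the genotype means, above the limit of 0.1. The numbers were therefore taken to pair them in the fit with a block, an alternative to the main fit, which has no block. Libraries with other numbers of the same pair correlated at 0.185 to 0.524, so the values alone do not tell the numbers of a pair apart, and the labels do not state a pairing. Promoters and positions are from TAIR10.1, and no coordinates were converted. The members, the lists and the replicate pair contrast were chosen with earlier results of these data known. Of the 63 other genes the text names those called in any comparison, the 3 largest changes in double against WT per role group and close paralogs of the members. Also named are HSP17.4 and the 8 genes most similar to the members, of which 3 belong to the 63. Alternatives were a pseudocount of 0.1, no filter, a filter at 5 FPKM, median of ratios scaling, quantile normalization, no variance trend, the replicate block, each pair of numbers alone and leaving out each library.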

Additional observations from a re-analysis of the deposited data

How the results depend on the processing

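The count of called members was 0 in every genotype comparison under all 25 alternatives run for each comparison with WT, and 9 between the replicate pairs under all 22 alternatives fitted over the genotypes together. Over 225 values of members per comparison with WT, 0 were called and the sign changed in 37 for double, 19 for mctp4-1 and 15 for mctp3-2. Between the replicate pairs 198 values under these alternatives were called with 0 sign changes. BIP2 ranged over 0.68 to 0.81 and SDF2 over 0.29 to 0.38, and BZIP60 over -0.29 to -0.19 with a highest limma adjusted p of 0.0189. In the fit within each genotype, added after seeing the data, 7 of 36 values lost the call (SDF2 in 3 genotypes and BZIP60 in 4).

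Counts over all genes moved more. With the replicate block 104 genes were called in double against WT (30 without), 11 in mctp3-2 against WT (6 without), 60 in double against mctp4-1 (12 without) and 53 in double against mctp3-2 (11 without). Within replicates 3 and 4 alone 2 genes were called in mctp4-1 against WT, 7 in double against mctp3-2 and 2 for the interaction; within replicates 1 and 2 alone 3 were called in mctp4-1 against WT (5 with all libraries) and 2 for the interaction (7 with all). A filter at 5 FPKM gave 3 in mctp3-2 against WT and 3 in mctp3-2 against mctp4-1 (5 without it). Leaving out 1 library gave 18 to 28 in double against WT, with 18 without double replicate 3, 7 to 14 in double against mctp4-1 and 7 to 13 in double against mctp3-2. Between the replicate pairs 1504 genes were called within double, 915 within mctp4-1, 841 within mctp3-2 and 3259 within WT, where 2 libraries stand against 2 (8551 with all). The cause of these moves was not tested. The fit with the replicate block used the same 16 libraries and 19239 genes as the fit without it. The fits on 1 pair of numbers, without 1 library or with the filter at 5 FPKM used fewer libraries or genes. The unknown read depth sets no interval here, and the 4 libraries per genotype, spread over both replicate pairs, limit what the comparisons with WT could show.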
